A study of Mus musculus with 2 samples.

Results

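The replication-dependent histone genes of the mouse were taken as all protein-coding genes of the GENCODE vM21 annotation (mm10) whose symbol begins with Hist1h, Hist2h, Hist3h or Hist4h. This gave 67 of 21938 coding genes. They lie in 4 clusters: 54 genes in Hist1 on chromosome 13, 10 in Hist2 on chromosome 3, 2 in Hist3 on chromosome 11 and 1 in Hist4 on chromosome 6. By class, 6 genes encode the linker histone H1, 18 encode H2A, 18 H2B, 12 H3 and 13 H4. Each cluster was also given a window, from its first to its last gene with 50 kb on each side, and the 4 windows held 83 of the 62686 binding sites listed for CTCF.

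The binding sites came from ChIP-seq with an antibody to CTCF on the hindbrain of B6NCrl mice at postnatal day 0, for which the labels give no mutation and no treatment. Hindbrains from several dissections had been pooled and ground together, and no sex was recorded. The labels give 1 group of 2 libraries, biological replicates 1 and 2, both from the same pooled material. Their spread may therefore be technical only, and there is no other condition to compare. CTCF peaks do not measure expression, so the tissue label could not be checked against marker genes. The deposited lists hold 300000 peaks for each library, 251251 for the pooled reads and 62686 in the optimal set, which the authors chose by IDR, the irreproducible discovery rate, a filter for peaks whose order recurs between lists. Read depth is unknown here. Peak signal is a score of the caller on an unstated scale, used here only to order and describe the entries of a list.

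Replication-dependent histone genes supply the bulk of new histone protein when DNA is copied in S phase. Most lack introns, and their messages end in a stem-loop in place of a poly(A) tail. Many H2A and H2B genes stand head to head and share the DNA between their starts. CTCF is a zinc finger protein that binds a long, directional motif and, with cohesin, marks the ends of chromatin loops. The motif search used the CTCF core consensus, which spans 14 positions, on both strands within 50 bp of each peak summit, allowing 2 mismatches.

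The sequences at the histone gene peaks show how closely each site resembles the CTCF core. The 5 peaks with a match are given first, as 40 bases of mm10 (GRCm38) read 5′ to 3′ on the strand of the match, here the minus strand in each case. Capitals mark the 14 bases aligned to the core consensus. The order is that of signal.
Hist1h4j, chr13:21734266-21734305: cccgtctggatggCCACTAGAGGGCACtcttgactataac
Hist1h4c, chr13:23697548-23697587: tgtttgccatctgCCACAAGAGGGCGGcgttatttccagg
Hist1h4f, chr13:23551662-23551701: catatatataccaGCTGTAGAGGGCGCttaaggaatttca
Hist2h4, chr3:96263459-96263498: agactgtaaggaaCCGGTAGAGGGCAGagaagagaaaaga
Hist2h2be and Hist2h2ac, chr3:96221449-96221488: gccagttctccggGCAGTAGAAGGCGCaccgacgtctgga

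The Hist1h4j site fits the consensus at every position, the Hist1h4c and Hist2h4 sites miss it at 1 position, and the Hist1h4f site and the site shared by Hist2h2be and Hist2h2ac miss it at 2. The 4 strongest of these 5 sites are at H4 genes. A pair of strong peaks had no match under this limit, and their best alignments, each with 3 mismatches and on the minus strand, are shown for comparison.
Hist3h2a, chr11:58955116-58955155: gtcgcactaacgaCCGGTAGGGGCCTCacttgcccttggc
Hist1h3e, chr13:23563301-23563340: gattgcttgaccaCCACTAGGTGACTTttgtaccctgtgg

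A match describes the letters only and does not show which bases were bound.

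CTCF peaks lay within 1 kb of a start site at 16 of the 67 histone genes (23.9%, 95% Wilson interval 15.3 to 35.3). Over all 21938 coding genes the share was 39.8%. Intervals in this text cover counting error only, and since neighbouring histone genes can share a peak, the genes are not independent of each other. The 16 genes held 14 distinct peaks. Counting genes with starts under 1 kb apart once gave 14 of 54 neighbourhoods (25.9%). Outcomes differed between clusters in count: 10 of 54 genes in Hist1, 4 of 10 in Hist2 and both genes of Hist3 had a peak, and the single Hist4 gene, Hist4h4, had none. By class, 1 of 6 H1 genes, 4 of 18 H2A, 4 of 18 H2B, 2 of 12 H3 and 5 of 13 H4 genes had one. The H4 share of 38.5% had an interval from 17.7 to 64.5, which overlaps the intervals of the other 4 classes.

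**Figure D1:**
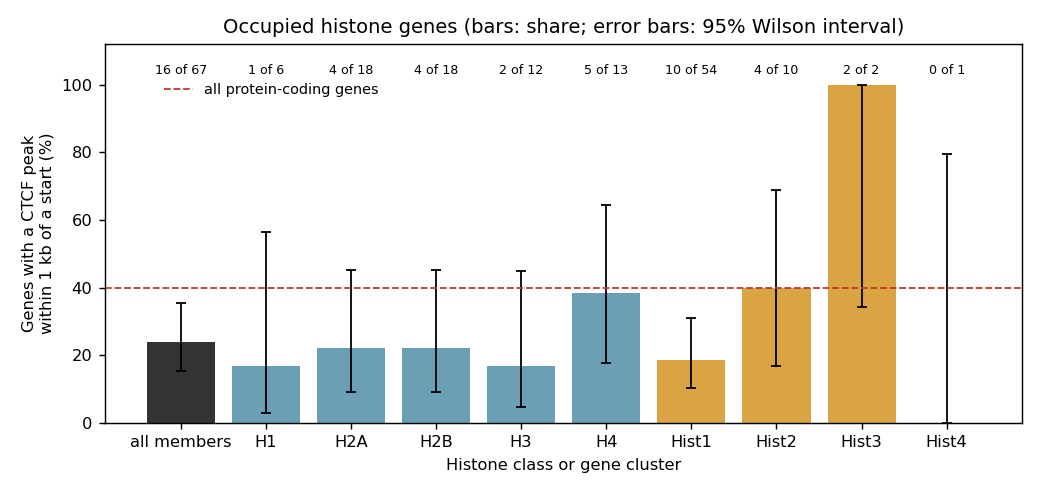
Share of histone genes with an optimal CTCF peak within 1 kb of a start site (percent, vertical axis) for all 67 members, by histone class and by cluster; bars are shares, error bars 95% Wilson intervals, and the dashed line is the 39.8% of all coding genes. The share over all members is 23.9%, and the intervals of the classes overlap one another.

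The 2 strongest peaks were at genes for H4, the histone that pairs with H3 at the centre of the nucleosome. Hist1h4j had the highest signal of the group, 329.6, which is above 90.9% of the optimal peaks. Its summit was 766 bp upstream of the start (peak chr13:21734164-21734411, intergenic). The peak ranked 5112 in the list of replicate 1 and 6441 in that of replicate 2, with signals of 194.8 and 135.9 on the scales of the single-library lists. Both libraries thus placed it far above the limit of 62686 that the size of the optimal set gives.

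Hist1h4c had 2 peaks. The stronger, with a signal of 264.6 (chr13:23697455-23697682), was 889 bp downstream of the start, past the end of this short gene, and ranked 10481 and 9201 in replicates 1 and 2. The weaker, with a signal of 45.0, was 18 bp inside the start and ranked 38663 and 45526. The core match was at the site past the end, and the best alignment at the start itself had 4 mismatches. Hist1h4a was similar in placement: its summit lay 971 bp downstream, past the end, with a signal of 78.3 and ranks of 28316 and 33854, and its best alignment had 4 mismatches.

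At Hist1h4f the site lay on the start region. The summit was 26 bp upstream of the GENCODE start (signal 139.2; chr13:23551602-23551746; ranks 19895 and 21761). The RefSeq promoter of this gene (GRCm38.p6, listed under the symbol H4c6, minus strand, 250 bases before to 50 after the RefSeq start) is shown because, of the RefSeq promoters matched to the group, it alone holds a core match and has an optimal peak. Capitals again mark the match, whose first base is 20 bp before the RefSeq start.
Hist1h4f promoter, chr13:23551619-23551918: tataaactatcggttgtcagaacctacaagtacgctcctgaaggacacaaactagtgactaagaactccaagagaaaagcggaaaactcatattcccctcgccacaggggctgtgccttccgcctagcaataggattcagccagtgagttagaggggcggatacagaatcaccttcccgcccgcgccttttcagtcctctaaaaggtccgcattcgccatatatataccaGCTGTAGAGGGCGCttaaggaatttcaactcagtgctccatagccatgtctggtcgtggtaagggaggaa

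Hist2h4, the H4 gene of the Hist2 cluster, had its summit 162 bp upstream (signal 136.0; chr3:96263439-96263568) with ranks of 20909 and 22064. Hist1h4f and Hist2h4 had almost the same signal and similar ranks in both libraries.

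Both Hist3 genes had a peak. At Hist3h2a, an H2A gene, the signal was 187.3 with the summit 446 bp into the gene (chr11:58955108-58955227), and the ranks were 15890 and 16529. Its start site is shared with Trim17, a gene for a ubiquitin ligase, so the peak cannot be assigned to either. Hist3h2ba, an H2B gene, had a signal of 28.3 with the summit 669 bp upstream, and ranks of 70343 and 53251. The Hist3h2ba peak was thus inside the limit of 62686 in replicate 2 and outside it in replicate 1.

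H3 genes had 2 peaks. Hist1h3e had a signal of 168.1 with the summit 946 bp upstream (chr13:23563255-23563414) and ranks of 16690 and 19322. This distance is just inside the 1 kb limit. The other peak lay between Hist1h3c, 793 bp from its start, and the H2B gene Hist1h2bb, 339 bp from its start, and counts for both genes. Its signal was 49.3, and it ranked 37278 and 47294.

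The other peaks, mostly weak, were at H2A and H2B genes and at an H1 gene. Hist2h2ab had a signal of 59.6 with the summit 498 bp upstream and ranks of 38471 and 32782. It also lay 342 bp from a start of Bola1. The head-to-head genes Hist1h2ak and Hist1h2bn shared a peak of 28.0, which was 373 bp into Hist1h2ak and 669 bp upstream of Hist1h2bn. Of the 14 peaks, this one differed most between libraries, with rank 96520 in replicate 1 and 41453 in replicate 2. Hist2h2be and Hist2h2ac, another head-to-head pair, shared a peak of 25.9, at 385 bp into the first and 624 bp upstream of the second, with ranks of 59629 and 69421. Hist1h1e, a linker histone gene, had a peak of 25.5 whose summit was 1 bp from its start, with ranks of 64475 and 60422. A summit at the start was therefore seen both for a peak with a core match (Hist1h4f) and for peaks without one (Hist1h1e and the weaker Hist1h4c peak).

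All 14 peaks had an overlapping peak in both single-library lists. Of the 14, 11 were among the 62686 strongest of replicate 1, 13 among those of replicate 2 and 10 among both (71.4%, interval 45.4 to 88.3). Both limits were met by 63 of the 83 window peaks (75.9%) and by 80% of coding promoter peaks, values inside that interval. The 4 that missed were the 4 weakest, at Hist3h2ba, at Hist1h2ak and Hist1h2bn, at Hist2h2be and Hist2h2ac, and at Hist1h1e. Spearman's rho between the ranks in the 2 libraries was 0.890 over the 14 peaks and 0.958 over the 83 window peaks. It is a description across peaks that share their libraries and had already passed the IDR filter for an order that recurs between lists.

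**Figure D2:**
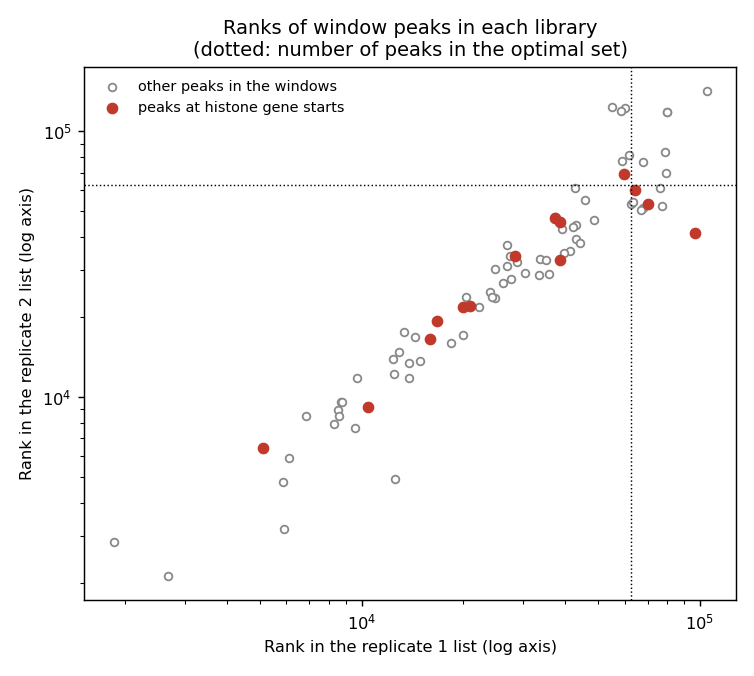
Rank of each of the 83 window peaks in the list of replicate 1 (horizontal, log axis) and replicate 2 (vertical, log axis), where a low rank is a strong peak; filled points are the 14 peaks at histone genes and dotted lines mark rank 62686. Most points lie near the diagonal. The peak of Hist1h2ak and Hist1h2bn, at 96520 and 41453, stands off it, as do several other window peaks, such as the Hist2 peak of 282.7 at 12552 and 4912.

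Counted by gene, peaks at histone genes lay farther from the start than at other genes. Among the 16 genes, 4 had a summit within 250 bp of a start (25%, interval 10.2 to 49.5), namely Hist1h4c, Hist1h4f, Hist1h1e and Hist2h4. Among the 8734 occupied coding genes the share was 62.1%. The median distance to the closest summit was 472 bp at the histone genes and 163 bp at all occupied genes. Distances over 500 bp were found for 7 of the 16 (43.8%), against 19.0% of all. No test was made of this difference. A shared peak counts for each of its genes. Among the 7, Hist1h2bn, Hist2h2ac and Hist1h3c share peaks that lie nearer to a partner gene. Those peaks are 373, 385 and 339 bp from the starts of Hist1h2ak, Hist2h2be and Hist1h2bb. The median signal of the 14 peaks was 68.9, with a range from 25.5 to 329.6, against a median of 59.1 over 11076 peaks at coding promoters. Counted by gene, with the strongest peak of each, the order was the other way: the median was 54.4 over the 16 histone genes and 75.4 over the 8734 occupied coding genes.

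The core consensus was matched at 5 of the 14 peaks (35.7%, interval 16.3 to 61.2). Without replicate 1, among the strongest peaks of replicate 2 alone, it was 4 of 17 (23.5%). The share at all coding promoter peaks was 42.9%, inside the interval of the 5 of 14. In windows placed 1 kb to either side of the 14 summits, 0 of 14 held a match, and at all coding promoter peaks the flanks held one in 3.22% and 3.58%. The median signal of the 5 peaks with a match was 139.2 and that of the other 9 was 49.3. Over all coding promoter peaks the medians were 112.2 with a match and 43.9 without.

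Most histone genes without an optimal peak still had a weak entry in the unfiltered list. In the pooled list, which no IDR filter had reduced, 47 of the 67 genes had a summit within 1 kb (70.1%), against 69% of coding genes. Of the 51 genes without an optimal peak, 31 had such an entry and 20 had none. Over all coding genes without an optimal peak, 6414 of 13204 had one. Among those with an observed-to-expected CpG ratio over 0.6, the counts were 30 of 48 histone genes and 3700 of 4223 coding genes. The 31 histone genes had signals from 7.27 to 22.7 with a median of 12.0, and the 6414 coding genes of the same kind had a median of 13.6. The largest were 22.7 at Hist1h4b, 19.0 at a peak counted for both Hist1h2ab and Hist1h3b, 17.6 at Hist2h2bb, 15.0 at Hist1h3a and 14.9 at Hist1h2be. None reached the 25.5 of the weakest occupied gene. The linker histone genes Hist1h1a and Hist1h1c, without an optimal peak, had pooled entries of 12.2 and 9.95, and Hist1h1b had none. Hist4h4 had an entry of 10.7.

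In the single-library lists, the share of histone genes with an entry was above that of coding genes. The list of replicate 1 had a summit within 1 kb of 55 of the 67 (82.1%), against 70.3% of coding genes. The list of replicate 2 had one at 51 (76.1%), against 69.7%. Set against all coding genes, the histone shares were thus below in the optimal set, near in the pooled list and above in both single-library lists. The single-library shares were given no interval, so their excess was not weighed against counting error. Among genes with CpG-rich promoters alone, the pooled-list share was 71.9% at histone genes and 94.8% at coding genes. That comparison was not made for the single-library lists. No peak in any list was found for 9 of the 67 genes (13.4%), against 24.3% of coding genes.

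Head-to-head pairs with a peak were fewer in both the optimal set and the pooled list. The group holds 12 pairs of an H2A and an H2B gene with starts 176 to 306 bp apart (median 259.5 bp). An optimal peak lay within 1 kb of 2 of the 12 pairs (16.7%), Hist1h2ak with Hist1h2bn and Hist2h2ac with Hist2h2be. Over all head-to-head coding pairs with starts within 1 kb, 65.7% had one. In the pooled list, 9 of the 12 pairs had an entry (75%), against 95.8% of all such coding pairs. Of the 3 pairs without an entry, 2 are near-identical copies of each other. The third, Hist1h2ba with Hist1h2aa, has 89.3% unique words at both genes and an entry in the list of replicate 1 only. It was named after its values were seen.

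The histone genes have many near-identical copies, which bears on where a short read can be placed. For each gene, the share of 32-base words within 1 kb of its annotated 5′ end that occur once in the genome was computed. Peaks were matched to all annotated starts, so for genes with several starts the word window covers only part of that region. Read length is not given in the sources used here, nor is the treatment of reads that align to several places, so this share is a stand-in. Its median was 75.5% at histone genes and 98.5% at coding genes. It was under 50% for 10 of the 67 (14.9%), against 6.74% of coding genes. Of all coding genes under 50%, 2.44% had an optimal peak and 92.4% had no peak in any list.

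These 10 genes are pairs of inverted copies. Hist1h2bq and Hist1h2br share 99.9% of their words at a distance of 23.5 kb, and Hist1h2ao and Hist1h2ap share 98.5% at 23.0 kb. None of these 4 genes had a unique word. Hist1h4m and Hist1h4n share 80.1% at 20.5 kb and have 4.21% and 4.26% unique words. In the Hist2 cluster, Hist2h3c1 and Hist2h3c2 share 79.6% at 7.56 kb, and Hist2h2aa1 and Hist2h2aa2 share 56.6% at 5.22 kb. In all 5 pairs the copies are on opposite strands. None of the 10 genes had an optimal or pooled peak, and 8 of the 10 had no peak in any list. The exceptions were Hist2h3c2 with an entry in the list of replicate 1 and Hist2h2aa2 with an entry in that of replicate 2. A lack of peaks at these copies cannot be told apart from a lack of reads that could be placed there.

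**Figure D3:**
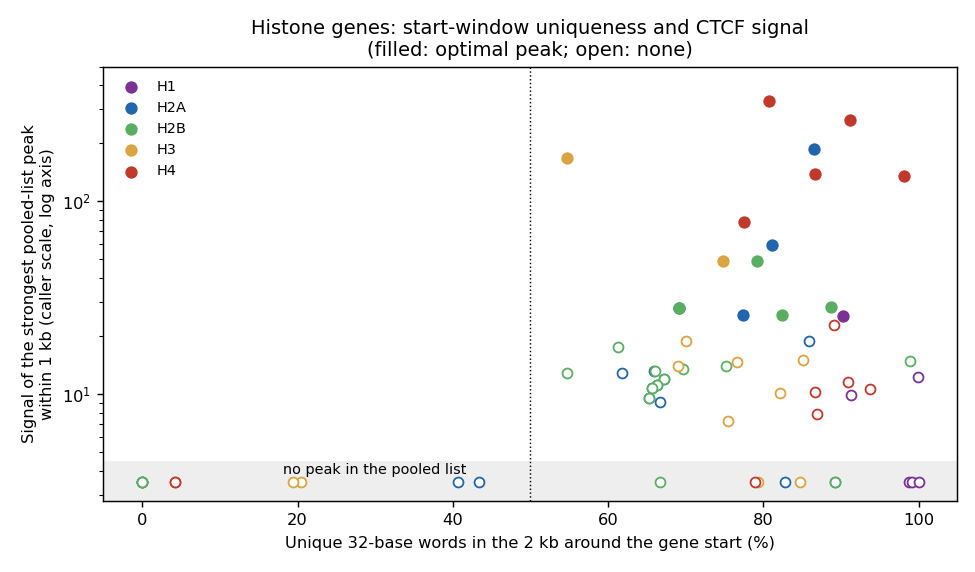
Share of 32-base words in the start window that occur once in the genome (percent, horizontal) against the signal of the strongest pooled-list peak within 1 kb (caller scale, log axis) for the 67 histone genes, coloured by class; filled points have an optimal peak, and points in the grey band have no pooled-list peak. All 10 genes left of the dotted line at 50% lie in the grey band, and the 2 highest filled points are H4 genes.

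The same contrast was looked at among genes with like promoters. Histone promoters are rich in CpG, with a median observed-to-expected CpG ratio of 0.879 against 0.552 for coding genes. Among genes with a ratio over 0.6, 16 of 64 histone genes had an optimal peak (25%), against 58.1% of 10083 coding genes. The pooled list had an entry at 46 of these 64. With at least 80% unique words as well, the counts were 9 of 25 histone genes (36%, interval 20.2 to 55.5) and 59.0% of 9792 coding genes. The pooled-list shares there were 80% and 95.9%. With 50 to 80% unique words they were 7 of 29 (24.1%, interval 12.2 to 42.1) and 41.1% of 175. Under 50% they were 0 of 10 (interval up to 27.8) and 10.3% of 116. The coding share was outside the interval of the histone genes with at least 80% unique words. In the other strata the histone genes themselves make up 29 of the 175 and 10 of the 116 coding genes. The coding shares there thus include many histone genes and were not set against the intervals. Over all 57 histone genes with at least 50% unique words, the share was 28.1%, against 42.5% of coding genes. That split by uniqueness was chosen after the data were seen.

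The promoters of the group share other short words. RefSeq promoters (GRCm38.p6) were matched for 61 of the 67 genes and compared with 32851 promoters of the same length, on both strands. The word CCAAT, the core of a box bound by NF-Y, was present in 52 of 61 (85.2%), against 37.4% of all promoters. It was in all 5 H1, 18 H2A, 16 H2B and 10 H3 promoters matched, but in 3 of 12 H4 promoters. TATAAA, bound by the core promoter factor TBP, was in 34 of 61 (55.7%), against 13.6%. ATTTGCAT, the octamer bound by POU factors, was in 7 of 18 H2A and 6 of 16 H2B promoters and in 0 of the H1, H3 and H4 promoters, against 1.74% of all. The promoters of head-to-head H2A and H2B genes overlap, since their starts lie 176 to 306 bp apart and each promoter reaches 250 bases before its start. A single word can thus be counted for both genes of a pair, and these counts are not of separate stretches of DNA. None of the 3 words contains another, and a word describes the sequence and not a bound site.

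Core matches for CTCF with at most 2 mismatches were in 4 of the 61 promoters (6.56%), against 14.4% of all promoters. The 3 besides Hist1h4f are shown, with coordinates on GRCm38.p6, because no optimal or pooled peak was found at them. They were singled out after their values were seen.
Hist2h3c1, chr3:96246578-96246617, minus strand: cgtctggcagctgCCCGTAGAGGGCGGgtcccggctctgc
Hist2h3c2, chr3:96239210-96239249, plus strand: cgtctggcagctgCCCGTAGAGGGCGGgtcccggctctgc
Hist1h1b, chr13:21780682-21780721, minus strand: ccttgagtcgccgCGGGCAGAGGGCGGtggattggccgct

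The Hist2h3c1 and Hist2h3c2 stretches are letter for letter the same and miss the consensus at 1 position, as the occupied Hist2h4 site does. They have 19.4% and 20.4% unique words. Hist1h1b, with 98.7% unique words, misses the consensus at 2 positions and had an entry in the list of replicate 2 only.

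Beyond the gene starts, the windows of the clusters held 83 optimal peaks in 2.68 Mb, a density of 31.0 per Mb with an exact Poisson interval from 24.7 to 38.4. The autosomes had 24.9 per Mb. The density was 22.9 per Mb in Hist1 (53 peaks), 93.2 in Hist2 (14 peaks), 129.7 in Hist3 (14 peaks) and 19.4 in Hist4 (2 peaks). Hist1 falls into 4 blocks of genes, where a block ends at a gap of over 100 kb. Taking the 4 clusters together, the 7 blocks had 54.0 peaks per Mb (34.2 to 81.1), the gaps between blocks 17.3 (11.8 to 24.4) and the margins 70 (46.5 to 101.2). The intervals of blocks and gaps do not overlap, but all gaps lie in Hist1 while the blocks pool the 4 clusters. The gaps after the first and the third Hist1 blocks had 35.4 (14.2 to 73.0) and 23.6 (6.43 to 60.5) peaks per Mb. Both intervals overlap that of the blocks. Single blocks ranged from 0 per Mb, as in the second Hist1 block, to 252.8 in Hist3.

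The gap between the second and the third Hist1 blocks is the main sparse stretch. It spans 1487 kb with 21 peaks, or 14.1 per Mb, and holds 40 coding genes. Most are vomeronasal receptor genes of the Vmn1r family. Of the 36 Vmn1r genes in the window, with a median of 91.1% unique words, 0 had an optimal peak. The share was 39.8% of all coding genes and 24.2% of those with a CpG ratio at or under 0.6. The 51 coding genes of the Hist1 window other than histone genes had a median CpG ratio of 0.116. The widest stretches without a peak, 462.9 and 389.8 kb, lie in this gap. The next widest, 169.7 kb (chr13:21753454-21923192), holds 12 coding starts and includes all 6 duplicated genes of the first Hist1 block.

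**Figure D4:**
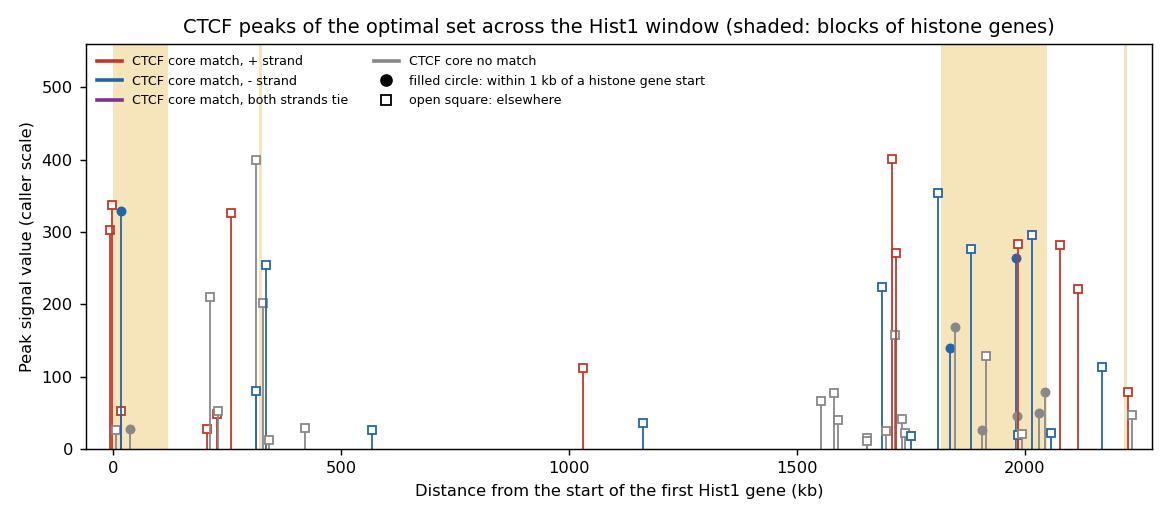
Optimal CTCF peaks across the Hist1 window, with distance from the start of the first Hist1 gene (kb, horizontal) and signal (caller scale, vertical); shading marks the 4 blocks of histone genes, colour the strand of the core match, filled circles the peaks within 1 kb of a histone gene start and squares all others. The third block holds 13 peaks and the first block 4, all 4 in its left part, and the gap of 1487 kb between the second and the third blocks is sparse over most of its length.

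The strongest peaks of the windows mostly lay away from histone gene starts, as did 69 of all 83 window peaks. In Hist1 they had signals of 401.3, 780 bp from the start of Abt1 (chr13:23424514-23424774), 399.5, at 6710 bp from Hist1h2ah (chr13:22028726-22029001), and 353.4, at 6221 bp from Hist1h4h (chr13:23524696-23524964). Abt1 encodes a factor that activates basal transcription. The best alignment at the second of these had 4 mismatches, so a signal near the top of the window came with no core match. In Hist2 the strongest were 282.7, 217.3 and 210.5, all in the right margin, and the second lay nearest to Fcgr1, an Fc receptor gene. In Hist3 they were 287.6 and 231.7 near Btnl10 and 191.6 near Trim11. Hist4 had only 2, of 113.9 nearest to Art4 and 70.2 near the start of Wbp11, both in the right margin.

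The distance from a block to the next peak outside it varied. The first Hist1 block had a peak of 337.8 at 845 bp outside Hist1h2bl, the strongest of the left margin, with 1 mismatch on the plus strand. On its other side the nearest was 85662 bp from Hist1h2br, with a signal of 27.2. The second block had a peak of 201.0 at 663 bp outside Hist1h2bj and one of 80.5 at 4520 bp outside Hist1h2ah. The third had the peak of 353.4 outside Hist1h4h, with a match on the minus strand. On its other side the nearest was 21.5, at 9280 bp from Hist1h1a. The fourth block had its nearest peaks at 48058 bp, with a signal of 113.7, and at 8200 bp. The strongest peak of the right Hist1 margin had a signal of 78.1. In the margins of Hist2 the strongest were 90.7 on the left, in an exon of Bola1, and 282.7 on the right. In those of Hist3 they were 287.6 and 191.6, and the left margin of Hist4 had none.

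**Figure D5:**
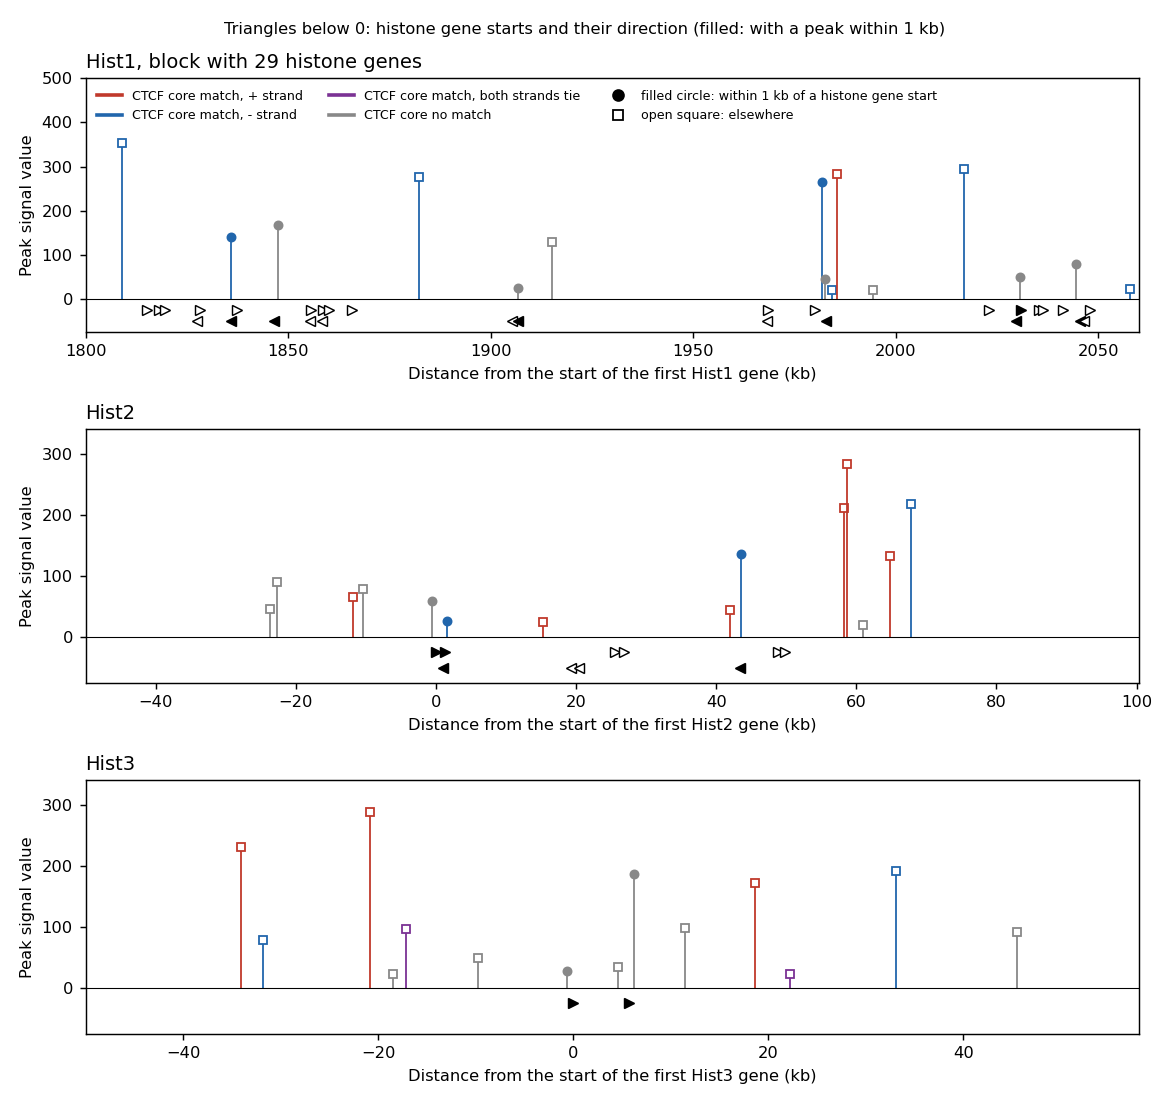
Peak signal (caller scale, vertical) by distance from the first gene of the cluster (kb, horizontal) in the third Hist1 block, with 29 histone genes, and in the Hist2 and Hist3 windows; triangles below 0 are histone gene starts pointing in the direction of transcription, filled where a peak lies within 1 kb, and colours give the strand of the core match. In Hist2 the peaks of 282.7 and 210.5 stand together to the right of the last gene, and the 4 occupied starts are at the left end and at Hist2h4.

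Core matches were found at 46 of the 83 window peaks (55.4%, interval 44.7 to 65.6), against 65.4% of all optimal peaks, and the median signal of window peaks was 78.6 against 73.9. The direction of the match sets which way a CTCF molecule faces, and facing sites are the usual arrangement at the ends of a loop. In Hist1, 13 matches were on the plus and 15 on the minus strand, and of the 27 neighbouring pairs 6 faced each other, 6 faced apart and 15 pointed the same way. In Hist2, of 8 pairs 3 faced each other, 2 faced apart and 3 pointed the same way. In Hist3, where 2 peaks matched equally on both strands and were left out, the counts were 2, 1 and 1 of 4. Loops themselves were not measured.

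Genes that act beside this group were described from 2 lists, chosen with earlier results of these data known. Replication-independent histones, which are made throughout the cell cycle and carry introns more often, had an optimal peak at 7 of 13 genes (53.8%, interval 29.1 to 76.8). The share was 39.8% of all coding genes and 58.1% of those with a CpG ratio over 0.6, and the medians of this ratio in the 2 lists were 0.843 and 0.819. The strongest were 288.4 at H2afz, which encodes the variant H2A.Z, 204.9 at H3f3b, 1 of the genes for H3.3, 166.9 at H2afy2, a macroH2A gene, and 109.5 at H1fx, a linker histone variant. Cenpa, H1f0 and H1foo were among those without. Factors for histone gene expression and chromatin assembly had one at 14 of 24 (58.3%, interval 38.8 to 75.5). Asf1b and Asf1a, which carry H3 and H4 to the sites of assembly, had 343.4 and 187.2, Lsm11, a part of the U7 particle that cuts histone messages, 330.8, and Hira, which loads H3.3, 165.6. Atrx, Casp8ap2 and Ccne1 had none. In the pooled list 12 of 13 (92.3%) and 22 of 24 (91.7%) had an entry, against 69% of coding genes and 94.8% of those with CpG-rich promoters. Both lists were near the shares of genes with CpG-rich promoters.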

How the data were processed

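CTCF ChIP-seq peaks from 2 libraries of 1 group were used. Per the deposited file descriptions, the authors called peaks on mm10 from each library and from both together, against a control alignment, and derived the optimal and conservative IDR sets. The deposited signal value is a score on the caller's scale, and the deposited summit offset gave the summit. Aligner, caller and IDR threshold were not given in the sources used here, and control libraries were not used here. The number of unused columns of per-sample values was 0.

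Summits were matched to all GENCODE vM21 start sites of protein-coding genes within 1 kb. A gene with a summit of the optimal set there is called occupied. Blocks are runs of members with neighbours at most 100 kb apart. The motif search covered 50 bp to each side of the summit with at most 2 mismatches, and flanks lay 1 kb away. Word uniqueness used 32-base words over both strands of the reference assembly. The GRCm38.p6 sequence stood for mm10. Ranks are by signal in each list. Shares have 95% Wilson intervals, densities exact Poisson intervals. No test was run, since the members were not independent of one another and there was 1 group. The motif, distance and uniqueness steps were tested on simulated data.

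The members, lists and questions were chosen with earlier results of these data known. Named are all occupied members, up to 3 members per cluster without a peak in alphabetical order, up to 6 members with only a pooled-list peak and the largest signal, the 3 strongest peaks per window, the strongest peak per margin, and from each list up to 4 members with the strongest peak and up to 3 without. Duplicated members and those in promoter matches were named after their values were seen. Alternatives were other peak sets, single libraries, merged summits, other promoter widths, mismatch limits, search windows, margins and overlaps. Software was Python 3.11.15, numpy 2.4.6, pandas 2.3.3, scipy 1.17.1, numba 0.67.0, pysam 0.24.0 and matplotlib 3.10.9.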

Additional observations from a re-analysis of the deposited data

How the results depend on the processing

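Of 54 alternative values, 42 stayed within the counting error or spread of the reported ones and 12 moved. The share of histone genes with a peak was 70.1% in the pooled list, 37.3% with promoters of 2.5 kb (49.2% of coding genes), 13.4% with promoters of 500 bp (32.3%) and 10.4% with only the optimal peaks above the median signal (20.2%). It was 17.9% to 26.9% when either replicate was left out (40.8% and 40.4% of coding genes) and 28.1% over members with at least 50% unique words, an alternative chosen after seeing the data. Among the 7 histone gene peaks above that median, 100% were strong in both libraries. They were picked by signal from a set already filtered for repeating between lists, so this outcome was nearly fixed in advance. No share of coding promoter peaks was computed at the same limit. The median signal was 18.5 to 66.9 when either replicate was left out, 18.5 being without replicate 1, on the scale of the other library. Density was 24.1 per Mb with no margins and 16.8 with those stronger peaks, and 26.9 to 31.0 with a replicate left out. The window motif share was 22.9% with at most 1 mismatch, 69.9% with at most 3, 42.2% within 25 bp and 71.1% among the stronger peaks, and 51.8% to 59.7% with a replicate left out. These are not to be set against the 65.4% of all optimal peaks, which holds for the main limits. Of the 83 window peaks, 5 matched at every position and 14 with 1 mismatch, against 5452 and 16289 of the 62677 optimal peaks searched. The motif share at histone gene peaks was 23.5% to 41.7% with a replicate left out. No paired analysis was possible because there is only 1 group. Depth limits could not be given without read counts, and the small number of peaks at members, 14, limits every share over them.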

Other observations

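Weak summits in the pooled list fell at a like distance inside several H2A genes. A summit lay 150 to 180 bp into 5 of the 18 H2A genes (27.8%), at 162 bp in Hist1h2an, 163 in Hist1h2ac, 167 in Hist1h2ag, 168 in Hist1h2ak and 171 in Hist1h2ai, against 6.13% of coding genes. Their signals ran from 9.52 to 17.5, and none is in the optimal set. In the single-library lists the counts were 3 of 18 in replicate 1 (16.7%, against 6.14% of coding genes) and 2 of 18 in replicate 2 (11.1%, against 5.93%). The interval was chosen after the values were seen, and no test was made. H2A start windows had a median of 66.4% unique words.

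Hist1h3g, an H3 gene with 84.8% unique words, was the 1 of 57 genes with at least 50% unique words that had no peak in any list. It was singled out after its value was seen.

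The nearest peak to the left of Hist4h4, outside its window, was 58570 bp away. It had a signal of 358.5 and matched the core at every position, on the minus strand.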
